A study of Mus musculus with 16 samples.

Results

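The genes described here encode the conjugating enzymes of the liver, the UDP-glucuronosyltransferases (UGT), the cytosolic sulfotransferases (SULT) and the cytosolic and mitochondrial glutathione transferases (GST). They were chosen by gene symbol alone, Ugt, Sult or Gst of the alpha, mu, pi, theta, kappa and omega classes followed by a number, with pseudogene symbols left out. This gave 40 of the 12618 genes in the deposited table, 15 UGT, 8 SULT and 17 GST. The 1 pseudogene symbol that matched, Gstm2-ps1, averaged 2635 ± 947 normalized counts in control and 2101 ± 505 in Cyp7a1-labelled livers (SD, n = 8 each, limma adjusted p = 0.421). Messenger RNA was sequenced from liver tissue of mice given a Western diet for 8 weeks, 8 libraries labelled control CRISPR and 8 labelled Cyp7a1 CRISPR. CRISPR nucleases cut DNA at a chosen site, here aimed at Cyp7a1, whose product starts the classical route from cholesterol to bile acids. The labels give no strain, age, sex, guide, vector or batch. Nor do they state whether the 8 libraries of a group are 8 animals, and the spread behind each p-value may in part be technical.

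All values below are normalized counts, gene counts that the authors scaled between libraries, unless stated otherwise. Depth, as reads recovered from the values, was 13.8 to 25.4 M reads in controls and 19.6 to 27.4 M in the Cyp7a1-labelled libraries (M, mega). Cyp7a1 counts did not check the labels, with 4702 ± 1126 under the Cyp7a1 label against 3587 ± 1252 in controls (SD, n = 8 each, limma adjusted p = 0.227), so each direction rests on the labels. Liver is a mixture of cells, and in it fewer cells of a type cannot be told apart from less RNA per cell. All 10 hepatocyte markers looked for were in the table, with summed counts of 1774420 to 2603600 in controls and 1849270 to 2602770 in the Cyp7a1-labelled livers. Of these markers only Tat, tyrosine aminotransferase, rose (log2 fold change 0.84 ± 0.24 SE, limma adjusted p = 0.0466), a call lost in 11 of 25 alternatives. The fold changes of single genes are differences of log2(value + 1), Cyp7a1-labelled minus control, tested with limma over 12617 genes.

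Conjugation makes fat-soluble compounds soluble in water so that bile and urine can carry them away. UGT enzymes, in the membrane of the endoplasmic reticulum, move glucuronic acid from UDP-glucuronic acid to bilirubin, steroids, bile acids and drugs. SULT enzymes move sulfate from the donor PAPS to phenols, steroids and bile acids, and GST enzymes join glutathione to reactive electrophiles, among them aldehydes from oxidised lipid. In hepatocytes these genes are known targets of receptors for foreign compounds and bile acids, such as CAR, PXR, AhR and PPAR-alpha, and of the oxidative stress factor NRF2.

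The Ugt1a genes are a special case, because several genes on chromosome 1 each have a first exon of their own and then share every later exon. In GENCODE M21 on GRCm38 (mm10) the shared part is 1311 bases long and was the same, letter for letter, in a transcript of each of the 5 Ugt1a genes in the table. The sequences below are the GENCODE transcripts across the first shared junction, 5′ to 3′. They show where the own first exon of each gene meets the shared exons. Lower case is the end of the gene's own first exon, and capitals are the start of the shared exon at chr1:88215044-88215175, plus strand.
Ugt1a9: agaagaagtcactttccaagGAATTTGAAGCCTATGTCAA
Ugt1a6b: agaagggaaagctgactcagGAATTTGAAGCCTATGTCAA
Ugt1a6a: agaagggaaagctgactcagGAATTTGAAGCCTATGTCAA
Ugt1a5: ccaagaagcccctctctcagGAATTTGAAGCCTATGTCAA
Ugt1a1: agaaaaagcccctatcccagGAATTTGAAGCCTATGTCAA
The lower-case ends of Ugt1a6a and Ugt1a6b are the same, and those of the other 3 genes differ. Between 50.3% (Ugt1a6a) and 82.7% (Ugt1a1) of the exon bases of each of these genes are covered by another gene of the annotation. In Ugt1a1 only 385 of 2224 exon bases are covered by no other gene, so the covered bases go beyond the 1311 shared ones. No source used here says how reads in the shared exons were counted, and exchange of reads among Ugt1a genes was not tested.

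Of the 40 genes, 1 rose and 2 fell in the Cyp7a1-labelled livers (limma, Benjamini-Hochberg adjusted p under 0.05). Over all genes 3.07% were higher and 3.05% lower, and 6.12% were called in either direction, against 7.5% of the 40, so the share of transferase genes called was near that of the table. The gene that rose was Ugt1a9, and those that fell were Ugt1a1 and the glutathione transferase Gsta4. Fold changes were above 0 for 17 genes and below 0 for 23, with a median of -0.03 on the log2 scale against 0.0034 for all genes. The calls of Ugt1a9, Ugt1a1 and Gsta4 held in each of 25 alternatives, including with any 1 library left out. The 6.12% is also the share to set beside the limma calls of each family below. An unadjusted p under 0.05 was found for 7 of the 40. The share of all genes under that limit is not given here, so such counts below have no share beside them.

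Ugt1a9 (ENSMUSG00000090175, chr1:88070800-88218997, plus strand) encodes a glucuronosyltransferase of phenols and fatty acids. In controls the lowest value was 90.0, the median 223 and the highest 626, and in Cyp7a1-labelled livers they were 337, 739 and 856. All 8 Cyp7a1-labelled livers lay above the control mean, 5 of them above the highest control, and the groups overlapped through Control 7 at the upper end of the controls and Cyp7a1 36 at the lower end of the others. The means were 261 ± 180 and 690 ± 167 (SD, n = 8 each), a rise of 1.62 ± 0.33 on the log2 scale (SE), 3.07-fold with a 95% interval of 1.91 to 4.94 (limma adjusted p = 0.0078).

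Ugt1a1 (ENSMUSG00000089960, chr1:88211959-88218997, plus strand) encodes the enzyme that conjugates bilirubin. It ran the other way, with 6246 at the lowest, 7000 at the median and 7874 at the highest in controls, and 5261, 5955 and 6639 in Cyp7a1-labelled livers. All of the latter lay below the control mean and 7 of 8 below the lowest control, with Cyp7a1 19 inside the control range. The means were 7034 ± 531 and 5885 ± 473 (SD, n = 8 each), a log2 fold change of -0.26 ± 0.06 (SE; 95% interval -0.38 to -0.14, limma adjusted p = 0.0141). Ugt1a1 varied little between livers, with a within-group SD of 0.11 on the log2 scale against 0.73 for Ugt1a9.

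The other Ugt1a genes did not pass. Ugt1a5 (chr1:88166012-88218997, plus strand) ran from 391 to 1095 in controls, median 583, and from 373 to 1372 in Cyp7a1-labelled livers, median 959. Its lowest value of all 16 libraries was in Cyp7a1 36, while the other 7 Cyp7a1-labelled livers held 855 or more. Its log2 fold change was 0.50 ± 0.23 (SE, limma adjusted p = 0.228) and became 0.68 without Cyp7a1 36, where it passed (limma adjusted p = 0.0388). Ugt1a6a and Ugt1a6b, near-identical phenol glucuronosyltransferase genes, had log2 fold changes of -0.12 ± 0.13 and -0.11 ± 0.05 (SE, limma adjusted p = 0.657 and 0.220).

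**Figure D1:**
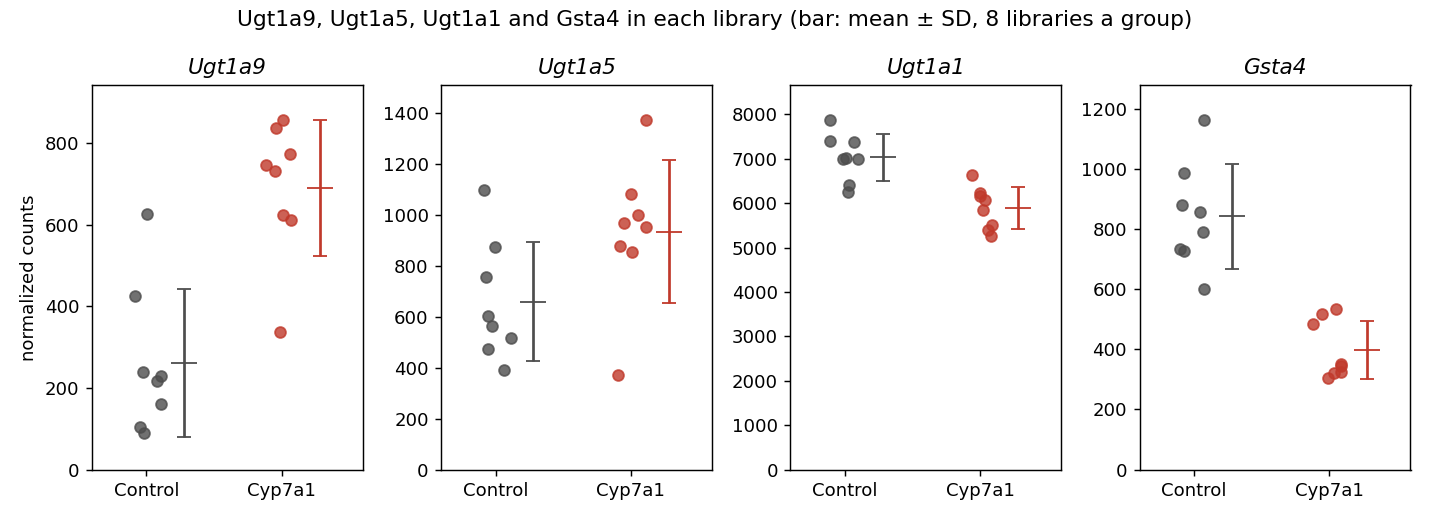
Normalized counts (vertical axis, from 0) of Ugt1a9, Ugt1a5, Ugt1a1 and Gsta4 in each of 8 control and 8 Cyp7a1-labelled libraries; points are libraries, and bars are the mean ± SD. Gsta4 has no overlap between groups, Ugt1a1 is lower in every Cyp7a1-labelled library than the control mean of 7034, and 1 Cyp7a1-labelled library is far below the other 7 in Ugt1a9 (337) and Ugt1a5 (373).

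Within each library the makeup of the Ugt1a counts differed between groups. Ugt1a9 took 0.959% to 6.60% of them in controls (median 2.36%) and 4.53% to 10.1% in Cyp7a1-labelled livers (median 8.22%). Ugt1a1 took 67.6% to 79.0% (median 75.8%) and 63.2% to 72.5% (median 66.9%). There were 10.2 to 77.9 counts of Ugt1a1 for each of Ugt1a9 in controls, median 32.1, and 6.29 to 16.0 in the Cyp7a1-labelled livers, median 8.03. The sum over the 5 genes was 9377 ± 398 in controls and 8816 ± 708 in Cyp7a1-labelled livers (SD, n = 8 each). These shares are given without a test, because they follow from the genes tested above.

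**Figure D2:**
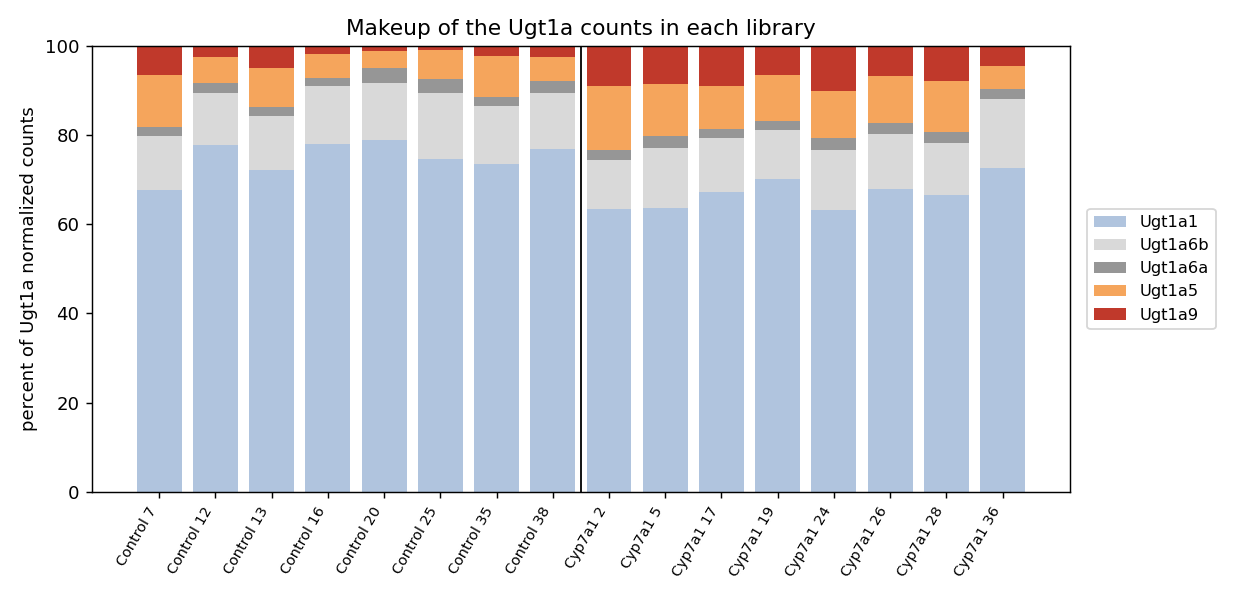
Percent of the summed Ugt1a normalized counts (vertical axis) taken by each of 5 Ugt1a genes in every library (horizontal axis, 8 controls on the left, 8 Cyp7a1-labelled on the right). Ugt1a9, the top segment, reaches 10.1% in the Cyp7a1-labelled livers and at most 6.60% in controls.

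Each Ugt1a first exon has a promoter of its own. The RefSeq promoter table (GRCm38.p6) had entries for 35 of the 40 genes. The 250 bases before the start are shown for Ugt1a9, Ugt1a1 and Ugt1a5, plus strand, 5′ to 3′, with capitals for matches to the motifs searched.
Ugt1a9, chr1:88070529-88070778: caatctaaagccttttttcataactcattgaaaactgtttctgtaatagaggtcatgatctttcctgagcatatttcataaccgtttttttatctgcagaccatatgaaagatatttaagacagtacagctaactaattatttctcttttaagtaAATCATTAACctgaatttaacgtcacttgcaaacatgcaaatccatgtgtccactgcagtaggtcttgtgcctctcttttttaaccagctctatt
Ugt1a5, chr1:88165762-88166011: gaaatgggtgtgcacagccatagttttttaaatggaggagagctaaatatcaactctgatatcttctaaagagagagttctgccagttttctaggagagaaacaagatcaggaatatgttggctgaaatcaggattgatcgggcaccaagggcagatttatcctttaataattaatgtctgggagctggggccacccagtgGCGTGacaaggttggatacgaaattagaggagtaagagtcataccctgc
Ugt1a1, chr1:88211709-88211958: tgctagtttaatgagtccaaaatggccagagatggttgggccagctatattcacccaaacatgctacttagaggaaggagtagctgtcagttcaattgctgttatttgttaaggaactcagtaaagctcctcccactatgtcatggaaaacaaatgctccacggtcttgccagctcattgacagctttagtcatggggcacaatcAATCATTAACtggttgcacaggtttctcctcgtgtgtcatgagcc
The capitals in Ugt1a9 and Ugt1a1 are the same 10 letters, a match on the minus strand to GTTAAT, then any base, then ATT, an element of the hepatocyte factor HNF1. That element was in 122 of 32851 promoter entries (0.371%) and in 3 of 43 entries of these transferase genes (6.98%), those of Ugt1a9, Ugt1a1 and Sult1d1, so Ugt1a9, which rose, and Ugt1a1, which fell, both had it, while Gsta4 had no entry. The capitals in Ugt1a5 match GCGTG, the core of the element bound by AhR, which was in 28.2% of all entries and in 8 of the 43 (18.6%), from 7 genes. The element of NRF2, TGACNNNGC, was in 10.2% of all entries and in 3 of the 43, those of Gsta3, Gstm5 and Gstm7. A direct repeat of AGGTCA with 1 base between and one of AGTTCA with 4 bases between were in 11 and 3 of all entries and in 0 of the 43. Both strands were searched, and in Gstm5 an NRF2 match and an AhR match overlap. No mismatch was allowed, so a near match to the HNF1 element, such as tttaataatt in Ugt1a5, was not counted. A match is a string of letters and not a measured binding site.

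The Ugt2 genes, which conjugate steroids and bile acids, did not pass in any of 8 members, by limma, edgeR or DESeq2, and 0 had an unadjusted p under 0.05. All 8 fold changes were below 0, from -0.61 to -0.02 on the log2 scale, with a median of -0.08. Ugt2b36 was the most abundant per length, with 5128 normalized counts per kb of exon in controls, and had 10558 ± 1596 counts against 9803 ± 724 (SD, n = 8 each, log2 fold change -0.10, 95% interval -0.26 to 0.07, limma adjusted p = 0.540). Ugt2b38 had the largest fold change of the family, -0.61 (95% interval -1.69 to 0.47), on low counts of 21.5 to 208 in controls and 17.7 to 140 in Cyp7a1-labelled livers. Ugt2b1 ran from 4473 to 13819 in controls and from 4839 to 11371 in the others. Control 16, Control 20, Control 25 and Control 35 lay above the highest Cyp7a1-labelled liver. Its log2 fold change was -0.39 (95% interval -0.86 to 0.08, limma adjusted p = 0.355). The Ugt3 genes use other sugars than glucuronic acid. Ugt3a2 had 6718 ± 688 against 7181 ± 529 counts (SD, n = 8 each, limma adjusted p = 0.422), and Ugt3a1 had 738 ± 116 against 747 ± 90. Ugt2b genes are close paralogs, and how reads were split among them was not tested.

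No sulfotransferase passed among 8, by limma, edgeR or DESeq2, while 2, Sult1a1 and Sult1d1, had an unadjusted p under 0.05. Sult1a1 (chr7:126672865-126676432, minus strand), the main phenol sulfotransferase, had a lowest, median and highest value of 4571, 6422 and 7026 in controls and 5082, 8222 and 9770 in Cyp7a1-labelled livers. The log2 fold change was 0.33 ± 0.13 (SE; 95% interval 0.05 to 0.61, limma adjusted p = 0.159). Sult1d1 (chr5:87554645-87569027, minus strand), which acts on catecholamines, had 1510, 2151 and 3045 in controls and 2012, 2880 and 3855 in the others. Its log2 fold change was 0.45 ± 0.16 (SE; 95% interval 0.12 to 0.77, limma adjusted p = 0.103), with 7 of 8 Cyp7a1-labelled livers above the control mean. The groups overlapped in both genes.

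Sult2a8, the bile acid sulfotransferase of mouse liver, held 34.6% to 55.8% of all SULT counts. It ran from 5271 to 13404 in controls, median 9739, and from 6511 to 11610 in Cyp7a1-labelled livers, median 8764. The log2 fold change was -0.03 with a 95% interval of -0.38 to 0.32 (limma adjusted p = 0.945). Sult2a7 was near the bottom of the table with 25.5 ± 5.9 against 18.8 ± 6.9 counts (SD, n = 8 each, limma adjusted p = 0.258). Sult1e1, which inactivates oestrogens by sulfation, went from 3.90 to 67.0 in controls and from 13.1 to 238 in the others. This spread left its log2 fold change of 0.60 with a 95% interval of -0.60 to 1.80. Sult5a1 had a log2 fold change of -0.30 (95% interval -0.94 to 0.33), and Sult1b1 and Sult1c2 had values of -0.0040 and 0.03.

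Gsta4 (ENSMUSG00000032348, chr9:78182774-78209349, plus strand) fell by more than any other of the 40 genes. It encodes the alpha class enzyme that joins glutathione to hydroxynonenal, an aldehyde from oxidised lipid. Its lowest, median and highest values were 601, 823 and 1162 in controls and 304, 346 and 533 in the Cyp7a1-labelled livers. The groups did not overlap, as for 1.04% of all genes (0.507% higher and 0.531% lower), and Gsta4 was the 1 gene of the 40 without overlap. The means were 842 ± 174 and 397 ± 96 (SD, n = 8 each), a log2 fold change of -1.09 ± 0.14 (SE), or 2.13-fold lower (limma adjusted p = 0.000277). The Cyp7a1-labelled livers formed a lower set of 5 between 304 and 350 and a higher set of 3 between 482 and 533, Cyp7a1 24, Cyp7a1 26 and Cyp7a1 36.

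No other alpha class gene passed. Gsta3, the most abundant of all GST genes by counts, had 33350 ± 5316 in controls and 34028 ± 3263 in the Cyp7a1-labelled livers (SD, n = 8 each), a log2 fold change of 0.04 with a 95% interval of -0.16 to 0.24 (limma adjusted p = 0.873). For each 100 counts of Gsta3 there were 2.12 to 3.03 of Gsta4 in controls and 0.805 to 1.81 in the others. Gsta2 had 232 ± 86 against 228 ± 103 counts. Gsta1 was low and uneven, 3.14 to 75.3 in controls and 9.60 to 55.8 in the Cyp7a1-labelled livers, and the 95% interval of its log2 fold change was -0.65 to 1.72.

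None of the 7 mu class genes passed by limma, edgeR or DESeq2, and 0 had an unadjusted p under 0.05. Gstm1 had the highest level of the 40 genes per length of all exon bases, at 16659 normalized counts per kb in controls. It ran from 17479 to 41891 in controls, median 19041, and from 14561 to 27482 in the others, median 19054. The medians were close, and the log2 fold change of -0.27 (95% interval -0.68 to 0.13, limma adjusted p = 0.459) came with 3 controls, Control 7, Control 13 and Control 25, at 29455 or more. Gstm3 ran from 312 to 2406 in controls and from 503 to 2230 in the others. Gstm5 had a log2 fold change of 0.22 (95% interval -0.02 to 0.46).

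No gene of the pi, theta, kappa and omega classes passed in limma, edgeR or DESeq2, with 0 at an unadjusted p under 0.05. Gstp1, the pi class enzyme, had 943 ± 292 against 838 ± 73 counts (SD, n = 8 each, limma adjusted p = 0.654). The theta gene Gstt1 had 5635 ± 325 against 5528 ± 588, with a 95% interval of the log2 fold change of -0.17 to 0.10 (limma adjusted p = 0.837), and Gstt3 had a log2 fold change of -0.22 (95% interval -0.45 to 0.01). The kappa gene Gstk1, whose product sits in mitochondria and peroxisomes, had 2658 ± 306 against 2674 ± 286, and the omega gene Gsto1 had 1867 ± 113 against 1913.5 ± 307. For 24 of the 37 genes that did not pass, the whole 95% interval lay within 0.5 on the log2 scale, 1.41-fold, in either direction. For 8 it reached past 0.5 but not past 1. For 5, Gsta1, Gstm3, Sult1e1, Ugt2b37 and Ugt2b38, it reached past 1, so a change of that size was not excluded in at least 1 direction.

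**Figure D3:**
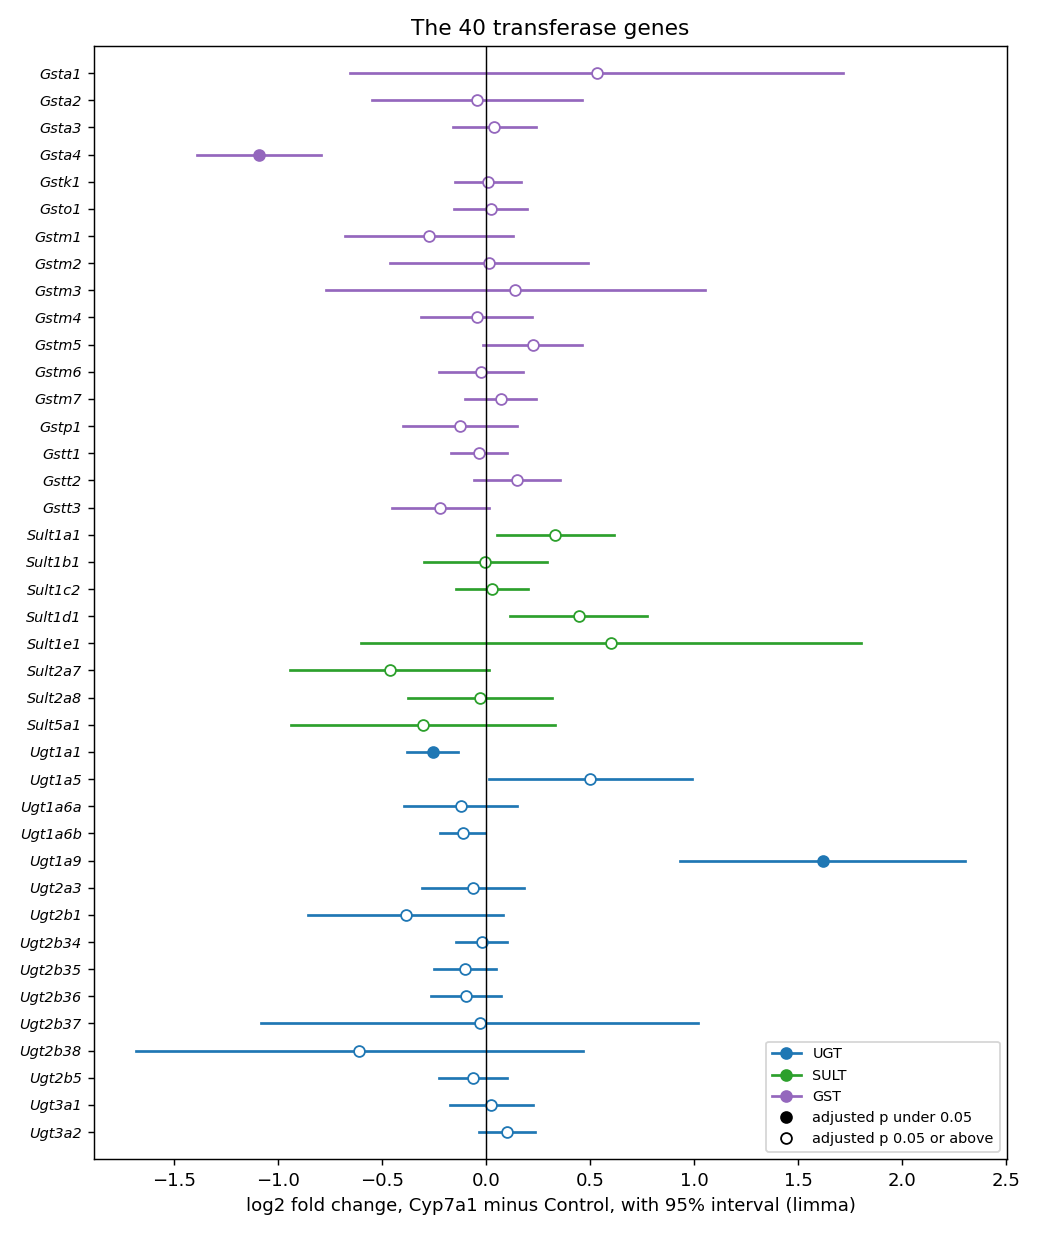
Log2 fold change (horizontal axis, Cyp7a1-labelled minus control) with its 95% limma interval for each of the 40 genes (vertical axis), coloured by enzyme class, with filled points for an adjusted p under 0.05. Ugt1a9 (1.62), Ugt1a1 (-0.26) and Gsta4 (-1.09) are filled, and the widest intervals belong to low or uneven genes such as Sult1e1.

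Per length, the order of the levels in controls began with Gstm1 at 16659 normalized counts per kb of exon, Gsta3 at 7677, Ugt2b36 at 5128, Ugt2b5 at 4544, Sult1a1 at 4009, Ugt2b1 at 3713, Gstt1 at 3688 and Ugt1a1 at 3163. It ended with Sult2a7 at 20.0, Ugt2b37 at 23.5, Gsta1 at 26.3 and Sult1e1 at 26.8. When the same counts were divided only by the exon bases that no other gene covers, Ugt1a1 came first with 18270 per kb. The other Ugt1a genes also had higher values on that scale. It overstates their levels if reads in the shared exons were counted, which is not known. All 40 genes passed the minimum mean of 10 counts, and 3 had a mean under 50. Together they took 0.667% to 0.865% of the counts in a library. The summed GST counts were 76940 ± 11156 in controls and 71983 ± 5072 in the others (SD, n = 8 each), the UGT sums 61018 ± 7760 and 56800 ± 3026, and the SULT sums 18589 ± 3946 and 20624 ± 3614, all with overlapping ranges.

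Livers of one group differed from each other by far more in some of these genes than in others. Within groups the SD on the log2 scale was 1.28 for Sult1e1, 1.25 for Gsta1, 1.15 for Ugt2b38, 1.12 for Ugt2b37 and 0.98 for Gstm3. It was 0.10 for Ugt1a6b, 0.11 for Ugt2b34 and Ugt1a1, and 0.13 for Gstt1 and Ugt3a2. Among controls Gstm3 spanned 7.72-fold from the lowest to the highest liver, and Gstt1 1.21-fold. The uneven genes were not all low in counts, since Gstm1 and Ugt2b1 spanned 2.40-fold and 3.09-fold among controls.

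**Figure D4:**
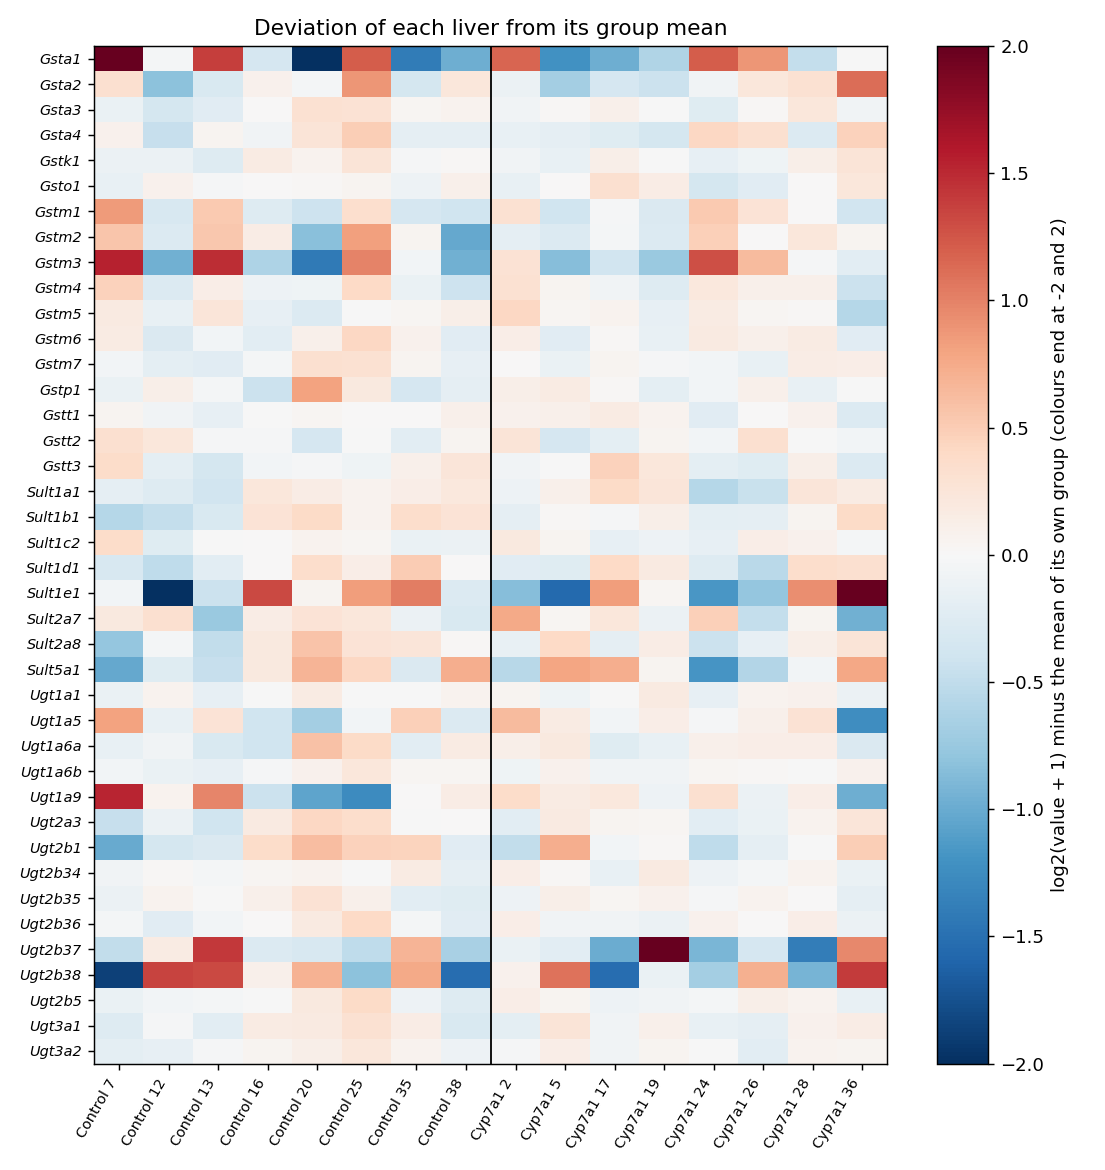
Deviation of log2(value + 1) from the mean of the library's own group (colour) for each of the 40 genes (vertical axis) in each library (horizontal axis). Gsta1, Gstm1 and Gstm3 are high together in Control 7, Control 13 and Control 25, and also in Cyp7a1 2, Cyp7a1 24 and Cyp7a1 26. Sult1e1, Ugt2b37 and Ugt2b38 have strong colours in single livers.

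The deviations from the group mean were compared between all 780 pairs of the 40 genes over the 16 libraries, with libraries permuted within groups (permutation test, two-sided, 100000 resamples, Benjamini-Hochberg over the pairs). Of these, 67 pairs (8.59%) passed, 49 with a positive and 18 with a negative Pearson r. Pairs of other genes were not tested, so this share has none of the whole table to be read against. The pairs named here were picked for their large r after the values were seen, and the points of all pairs share the same libraries.

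The strongest pair was Gstm1 with Gstm3, r = 0.93 and Spearman rho = 0.90 (permutation p = 1e-05, the smallest these resamples can give, and 5e-05; adjusted p = 0.00195 and 0.0091). It was 0.94 within controls and 0.91 within the Cyp7a1-labelled livers, and 0.90 without the 2 libraries farthest from the median of Gstm1. Gsta1, on another chromosome, went with Gstm1, r = 0.89 and rho = 0.85 (permutation adjusted p = 0.0026 and 0.0149). The r was 0.86 without the 2 libraries farthest from the median of Gsta1. Gstm genes are close paralogs, and reads shared between them were not tested. A second set held the bile acid sulfotransferase Sult2a8 with Ugt2a3, r = 0.92 and rho = 0.87 (permutation adjusted p = 0.00195 and 0.0091), and with Ugt2b1, r = 0.91 and rho = 0.92 (adjusted p = 0.0026 and 0.0091). Without the 2 libraries farthest from the median of Sult2a8 these r were 0.85 and 0.90.

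Ugt1a9, the gene that rose, had negative r with all 3 genes of the second set. With Ugt2a3 the r was -0.91 and the rho -0.79 (permutation p = 6e-05 and 0.00101, adjusted p = 0.00669 and 0.0330). The r was -0.98 within controls, -0.62 within the Cyp7a1-labelled livers and -0.85 without the 2 libraries farthest from the median of Ugt1a9. With Sult2a8 the r was -0.82 and the rho -0.76 (permutation adjusted p = 0.0186 and 0.0395). That r was -0.93 within controls, -0.48 within the other group and -0.64 without the 2 libraries farthest from the median of Sult2a8. With Ugt2b1 the r was -0.77 and the rho -0.72 (permutation adjusted p = 0.0234 and 0.0523), passing on r alone. That r was -0.88 within controls, -0.53 within the other group and -0.64 without the 2 libraries farthest from the median of Ugt1a9. Gstm1 and Sult2a8 had an r of -0.82 and a rho of -0.74 (permutation adjusted p = 0.0156 and 0.0502), so that pair also passed on r alone. Between groups neither Ugt2a3 nor Sult2a8 passed.

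**Figure D5:**
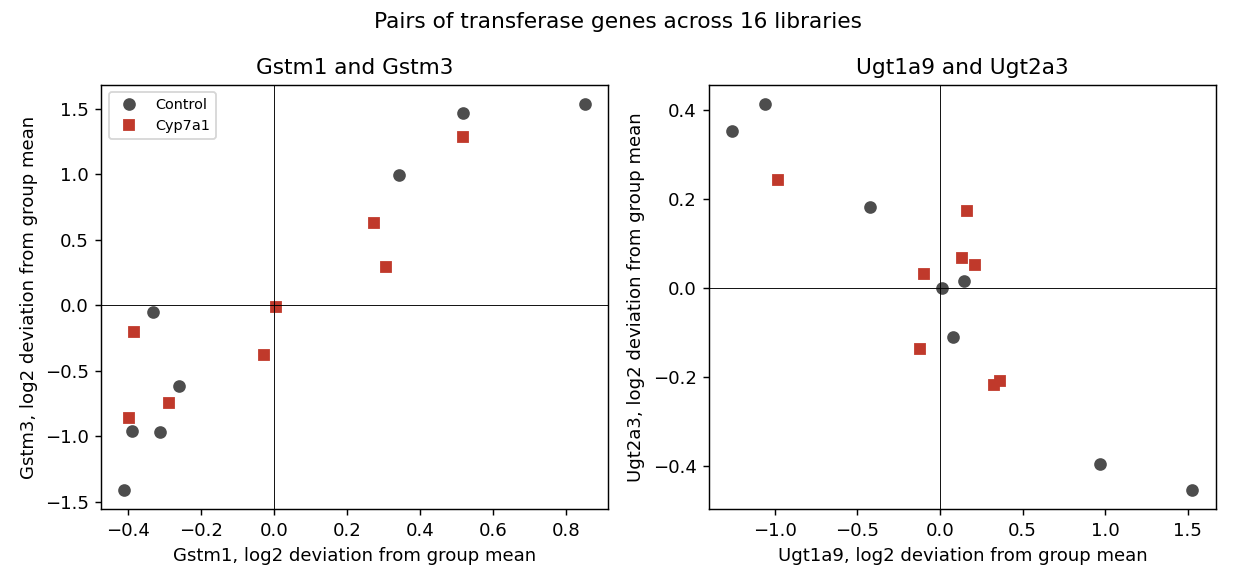
Deviation from the group mean on the log2 scale for Gstm1 against Gstm3 (left) and Ugt1a9 against Ugt2a3 (right), 1 point per library. The left pair rises together (r = 0.93), and the right pair runs in opposite directions (r = -0.91).

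Genes that supply the donors of these reactions and carry away the products were read beside the 6.12% of all genes called by limma. The difference was not tested. The shares of all genes called by edgeR and DESeq2 are not given here, so their counts have no share to be read against. Of 9 genes of UDP-glucuronic acid supply 1 rose and 0 fell in limma, with a median log2 fold change of -0.07, and edgeR and DESeq2 each called 2. Ugdh, which makes UDP-glucuronic acid, went from 2298, 2712 and 3907 at the lowest, median and highest in controls to 3380, 4016 and 4717 in Cyp7a1-labelled livers, a rise of 0.50 ± 0.11 on the log2 scale (SE, limma adjusted p = 0.0127) with some overlap. Of 17 genes of glutathione synthesis, recycling and breakdown 1 rose and 2 fell in limma, with a median of 0.01, and edgeR and DESeq2 each called 3. Ggct, which cleaves glutamyl peptides in glutathione breakdown, rose without overlap between groups from 112 ± 21 to 178 ± 15 counts (SD, n = 8 each, log2 fold change 0.68, limma adjusted p = 0.000652). Gclc, the catalytic subunit of the rate-limiting step of glutathione synthesis, fell by 0.41 ± 0.08 on the log2 scale (SE, limma adjusted p = 0.0053). Gpx1, a glutathione peroxidase, fell by 0.28 ± 0.07 (SE, limma adjusted p = 0.0341), a call lost without Control 12, 16, 25 or 38, without Cyp7a1 2, 24, 26 or 28, and without Control 20 and Cyp7a1 24 together (adjusted p up to 0.0688).

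Of 11 genes of PAPS supply and sulfate transport 0 passed in limma, edgeR or DESeq2, and 3 had an unadjusted p under 0.05. The sulfur dioxygenase Ethe1 and the phosphatase Bpnt1 had log2 fold changes of 0.23 ± 0.08 and -0.10 ± 0.05 (SE). None passed among 8 other glutathione transferases (Mgst3 0.33 ± 0.19, Mgst1 -0.10 ± 0.06) or 10 genes of conjugate removal (Galns 0.29 ± 0.12, Arsa -0.18 ± 0.11), by limma, edgeR or DESeq2. Unadjusted p under 0.05 was found for 0 and 1 of them. Mgst1 had 71089 ± 4342 counts in controls (SD, n = 8), more than any of the 40 genes. Of 9 conjugate exporters 1 rose and 1 fell in limma, while edgeR called 2 and DESeq2 3. Abcc4, which pumps sulfated and glucuronidated compounds into blood, rose without overlap from 104 ± 19 to 159 ± 21 counts (SD, n = 8 each, limma adjusted p = 0.00378). Abcc3, an exporter of glucuronides into blood, fell by 0.24 ± 0.07 (SE, limma adjusted p = 0.0404), a call lost with quantile normalization (0.112), with equal totals (0.0956) and without Control 7, 12, 13, 16 or 38 or Cyp7a1 5, 17, 19, 28 or 36 (up to 0.0830).

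The lists of receptors and their targets have the same limit, with 6.12% of all genes called by limma and no such share for edgeR or DESeq2. Among 16 receptors and partner factors limma and edgeR each called 1 and DESeq2 called 3. The gene limma called was Nr0b2, a repressor induced by the bile acid receptor FXR, lower by 1.95 on the log2 scale (-1.95 ± 0.21 SE, limma adjusted p = 4.25e-05). Of the targets of these receptors outside the transferases, CAR and PXR targets had 1 higher and 4 lower of 14 in limma, with a median of -0.34, while edgeR called 6 and DESeq2 7. Cyp3a25, Ces2a, Slco1a4 and Cyp3a11 had log2 fold changes of -0.45, -0.64, 0.69 and -0.47, and Abcc3 was the fifth of them. The call of Ces2a was lost in 4 alternatives, that of Slco1a4 in 5 and that of Cyp3a11 in 9. NRF2 targets had 0 higher and 1 lower of 13 (median 0.07), and that 1 was Gclc, while edgeR called 1 and DESeq2 2. PPAR-alpha targets had 1 of 13 higher, Cyp4a14 at 1.36 ± 0.32 (SE), and 1 lower, Vnn1 at -0.54 ± 0.15, the latter lost in 11 alternatives, and edgeR and DESeq2 each called 2. None of 4 AhR targets passed by limma, edgeR or DESeq2, with 0 at an unadjusted p under 0.05 (Cyp1a2 -0.34 ± 0.22, Nqo1 0.22 ± 0.16). Of 18 genes that depend on sex or on growth hormone 0 were higher and 2 lower, with a median of -0.18. Those 2 were Mup17 at -2.24 ± 0.46 and Mup3 at -0.998 ± 0.253, and the call of Mup3 was lost in 4 alternatives. The list includes the Y-linked genes Ddx3y, Eif2s3y, Uty and Kdm5d, which had counts in every library. Eif2s3y had 805 to 1025 in controls and 882 to 1038 in Cyp7a1-labelled livers. In that list edgeR called 2 and DESeq2 5. All values are log2 fold changes from the same limma fit.

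Markers of other cells and of liver zones were looked at beside these results, and their part in them was not tested. Here too limma called 6.12% of all genes, and no share is given for edgeR or DESeq2. In limma the passing members were 1 of 10 pericentral markers, Rhbg at 0.71 ± 0.18 (SE), 1 of 10 periportal markers, Aldh1b1 at 0.65 ± 0.16, and 1 of 7 cholangiocyte markers, Krt23 at -2.15 ± 0.31. In these 3 lists edgeR called 1 each, and DESeq2 called 4, 2 and 1. Fold changes were above 0 for 6 of 10, 6 of 10 and 6 of 7 members, and the rest were below 0. The median log2 fold changes of the lists were 0.06, 0.14 and 0.08, so the named genes do not stand for their lists. None passed among 10 stellate cell markers (Hgf 0.27 ± 0.11, Dcn 0.11 ± 0.08), 8 endothelial markers (Lyve1 0.46 ± 0.20, Kdr -0.18 ± 0.09), 10 macrophage markers (Folr2 -0.24 ± 0.12, Vsig4 0.20 ± 0.12) or 8 blood markers (Cd79b 0.53 ± 0.37, Ighm 0.39 ± 0.32), by limma, edgeR or DESeq2. Unadjusted p under 0.05 was found for 1, 2, 0 and 0 of these. The summed macrophage markers ran from 6139 to 11418 in controls and from 5096 to 17530 in Cyp7a1-labelled livers, and the summed cholangiocyte markers from 1688 to 4445 and from 1912 to 4616. In Cyp7a1-labelled livers the macrophage marker Cd5l had a median of 1977 and a highest value of 8124, and Adgre1 464 and 3537. In controls these were 2393 and 3729 for Cd5l, and 420 and 1047 for Adgre1.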

How the data were processed

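Messenger RNA was sequenced from 16 liver libraries, 8 a group. The authors deposited normalized counts, a signal per gene and library, for 12618 genes. The build was mm10, and the tools were STAR 2.7.11a, featureCounts, DESeq2, R 3.6.3 and Trim Galore 0.6.10, per the submitters' processing notes, which give no role or order. Strand setting, gene filter and annotation release were not given in the sources used here. Without strand, reads of genes that overlap on opposite strands cannot be told apart. The Ugt1a genes share exons on the plus strand, where a strand setting would not separate their reads.

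Values were whole multiples of 1 step per library for 99.944% to 99.992% of values (tolerance 0.05 reads), and dividing by it gave reads for edgeR 4.0.16 and DESeq2 1.42.0, used only as alternatives. Ccne2, with 1 cell that was no number, was left out, and 19 date-like symbols were restored by gene ID. The main test was limma 3.58.1 in R 4.3.3 (lmFit, eBayes with trend) on log2(value + 1), two-sided, over 12617 genes, at an adjusted p of 0.05 and a minimum mean of 10, which removed no gene. Adding 1 understates changes of low genes. No number pairs the libraries across groups.

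The genes, lists and tests were chosen with earlier results of these data known. Named were the members that passed, the most abundant per length and most changed of each family, and for each list the up to 4 passing genes of smallest p, or 2 where none passed. Other members were named after their values were seen. All 40 members matched GENCODE M21, whose coordinates are 1-based on mm10. The steps were tested on simulated data. Alternatives were edgeR, DESeq2, array weights, equal totals, quantile normalization, a pseudocount of 8, a minimum mean of 50 or none, each library left out in turn, and Control 20 and Cyp7a1 24 left out together.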

Additional observations from a re-analysis of the deposited data

Results flagged for a closer look

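A library stood apart from the 7 that share its label in 3 of the 80 sets of 8 values looked at (Dixon's 95% criterion on log2 values), where chance gives about 1 in 20 groups, or 4. Cyp7a1 36 was the lowest of its group for Ugt1a9, with 337 normalized counts against 612 to 856 in the other 7, and for Ugt1a5, with 373 against 855 to 1372. Control 12 was the lowest of the controls for Sult1e1, with 3.90 against 19.3 to 67.0.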

How the results depend on the processing

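Over 25 alternatives to the fit, 2 members were called lower in each, and 1 was called higher in each except without Cyp7a1 36, where Ugt1a5 joined Ugt1a9. With single libraries left out the number called higher thus ranged from 1 to 2 and the number called lower stayed at 2. The log2 fold change ranged from 1.39 to 1.84 for Ugt1a9 (adjusted p 0.00103 to 0.0199), from -0.28 to -0.21 for Ugt1a1 (0.000662 to 0.0370) and from -1.16 to -1.02 for Gsta4 (1.62e-10 to 0.000933). Ugdh, Ggct, Gclc and Abcc4 kept their calls in all 25, with a highest adjusted p of 0.0356, 0.00220, 0.0219 and 0.0121. Among supporting genes calls were lost in 12 of 25 alternatives for Abcc3, 11 each for Tat and Vnn1, 9 each for Gpx1 and Cyp3a11, 5 for Slco1a4, 4 each for Ces2a and Mup3, and 1 each for Rhbg (without Cyp7a1 28, 0.0501) and Aldh1b1 (without Control 38, 0.0513), with no change of direction. No paired analysis was possible because the groups share no replicate numbers. Depth limits the 3 members with a mean under 50 counts, Gsta1, Sult1e1 and Sult2a7, which like Cd79b have no value under a minimum mean of 50.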
